A study of Hippophae rhamnoides with 3 samples.

Results

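The genes described here are the lipid genes of seabuckthorn (Hippophae rhamnoides) leaf: those for fatty acid, sterol, membrane lipid and storage lipid metabolism. They were taken from the deposited lists of differentially expressed genes wherever the description of the best protein hit held one of these words: fatty acid, desaturase, acyl-CoA, ketoacyl, acyl carrier, lipase, phospholipase, lipid transfer, wax, diacylglycerol, phosphatidyl, oleosin, sterol, sphingo or GDSL. Descriptions with carotene, anthocyan, lipoxygenase or kinase receptor were dropped. Of 7713 genes on any of the 3 lists, 40 met the rule. No description held wax, lipid transfer or GDSL, so genes described by these words are not among the 40. Genes of these families that are described in other words may be. The best hit had an E-value of at most 1e-20 for 34 of the genes and a weaker one for 6. Those 6 are Unigene10266_All, Unigene14931_All, Unigene17664_All, Unigene18797_All, Unigene42587_All and Unigene8678_All, and their names are less certain. Of the 7713 genes, 2449 had no named hit and could not be sorted.

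Expression was measured by DeepSAGE, in which each mRNA is read as a short tag next to a CATG site and the tags are counted. One leaf library each was made from plantlets 30 days old after 6 hr at -10 °C (freeze stress, FS), after 6 hr at 4 °C (cold stress, CS) and from control plantlets at 28 °C (CON). All 3 groups were grown from seed in the same growth chamber at 28 °C, and the number of plantlets behind a library is not given in the sources used here. With 1 library per condition there was no replicate check, so every interval and test below covers counting error between libraries only, and the libraries stand for conditions only as far as their labels do. Clean tags numbered 11908607 in FS, 12010128 in CS and 11566378 in CON, and a count of 0 allows up to 0.252, 0.250 and 0.259 TPM (tags per 1000000 clean tags) in these libraries. Among the listed genes, 8 matched the leaf terms Rubisco, chlorophyll a/b binding protein or carbonic anhydrase, with medians of 583 tags in FS, 580 in CS and 697 in CON. Their known counts ran from 56 to 11521 in FS, 116 to 8634 in CS and 0 to 22282 in CON. A further 2 listed genes matched the vascular term xylem, with 34 to 46 tags in FS, 12 to 78 in CS and no known count in CON. A gene that is on only 1 of the lists has values for the libraries of that list alone, and its value in the remaining library is not known here. In whole leaves, fewer cells of a type and less RNA per cell cannot be told apart.

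Plant membranes are kept fluid in the cold partly by fatty acid desaturases, which put double bonds into the acyl chains of membrane lipids, in the plastid or at the endoplasmic reticulum. Sterols stiffen or order the bilayer, phospholipases and diacylglycerol kinases make phosphatidic acid and other lipid signals, and freezing draws water out of the cell and presses membranes together. Storage triacylglycerol sits in droplets coated by oleosins, is opened by lipases, and its fatty acids are broken down by beta-oxidation in the peroxisome.

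In the CS against CON comparison, 24 of the 40 genes were listed, where 50.2% of the 7713 genes were. Among these 24 genes 13 were higher in CS and 11 lower, while 53.0% of all genes listed for this pair were higher in CS. Their median log2 ratio was 1.13, next to 1.08 over all genes listed. In FS against CON 16 were listed (52.5% of the 7713), 8 higher and 8 lower in FS, where 56.2% of all listed genes were higher, and the median log2 ratio was 0.31 next to 1.18. In FS against CS 20 were listed (51.8% of the 7713), 10 in each direction, where 55.3% of all listed genes were higher in FS, and the median was 0.0027 next to 1.12. Under RLE scaling, which sets the median listed gene to no change, the lipid genes past 2-fold were 6 higher and 11 lower in CS against CON, 4 and 8 in FS against CON, and 4 and 10 in FS against CS. Where the log2 ratio had to reach 2 or -2, there were 6 higher and 2 lower in CS against CON, 6 and 1 in FS against CON, and 4 and 3 in FS against CS. RLE scaling only moved the ratios of listed genes downward, so its lower counts could not fall below those as reported. Shares of all listed genes were not computed under these settings. No lean of the lipid genes can therefore be read from either. As reported, the shares of the lipid genes lie near those of all listed genes, and the 3 comparisons share libraries. The exact binomial test on the tags called all of the listed lipid genes at a p of at most 0.001, as it did 100% of all listed genes, and listing had already required a 2-fold difference. If a coefficient of variation of 0.2 between plants is assumed in place of counting error alone, 10 of 24, 10 of 16 and 9 of 20 still passed in CS against CON, FS against CON and FS against CS, next to 51.1%, 46.5% and 46.4% of all listed genes. At 0.4 there were 3, 2 and 1, next to 8.86%, 6.15% and 4.28%. Those were an oleosin (Unigene52166_All), a protease (Unigene23272_All) and a plastid desaturase (Unigene13598_All) in CS against CON, the same desaturase and an acyl-CoA synthetase (Unigene34678_All) in FS against CON, and a triacylglycerol lipase (Unigene35238_All) in FS against CS.

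For 19 of the 40 genes the tags of all 3 libraries are known, since they were on 2 or 3 lists. Of these, 8 were highest in FS, 8 in CS and 3 in CON, next to 36.3%, 34.1% and 29.6% of the 3960 genes with 3 known counts. The lowest library was FS for 7, CS for 5 and CON for 7, next to 28.1%, 33.0% and 38.9%. The groups below differ in which library stood apart.

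**Figure D1:**
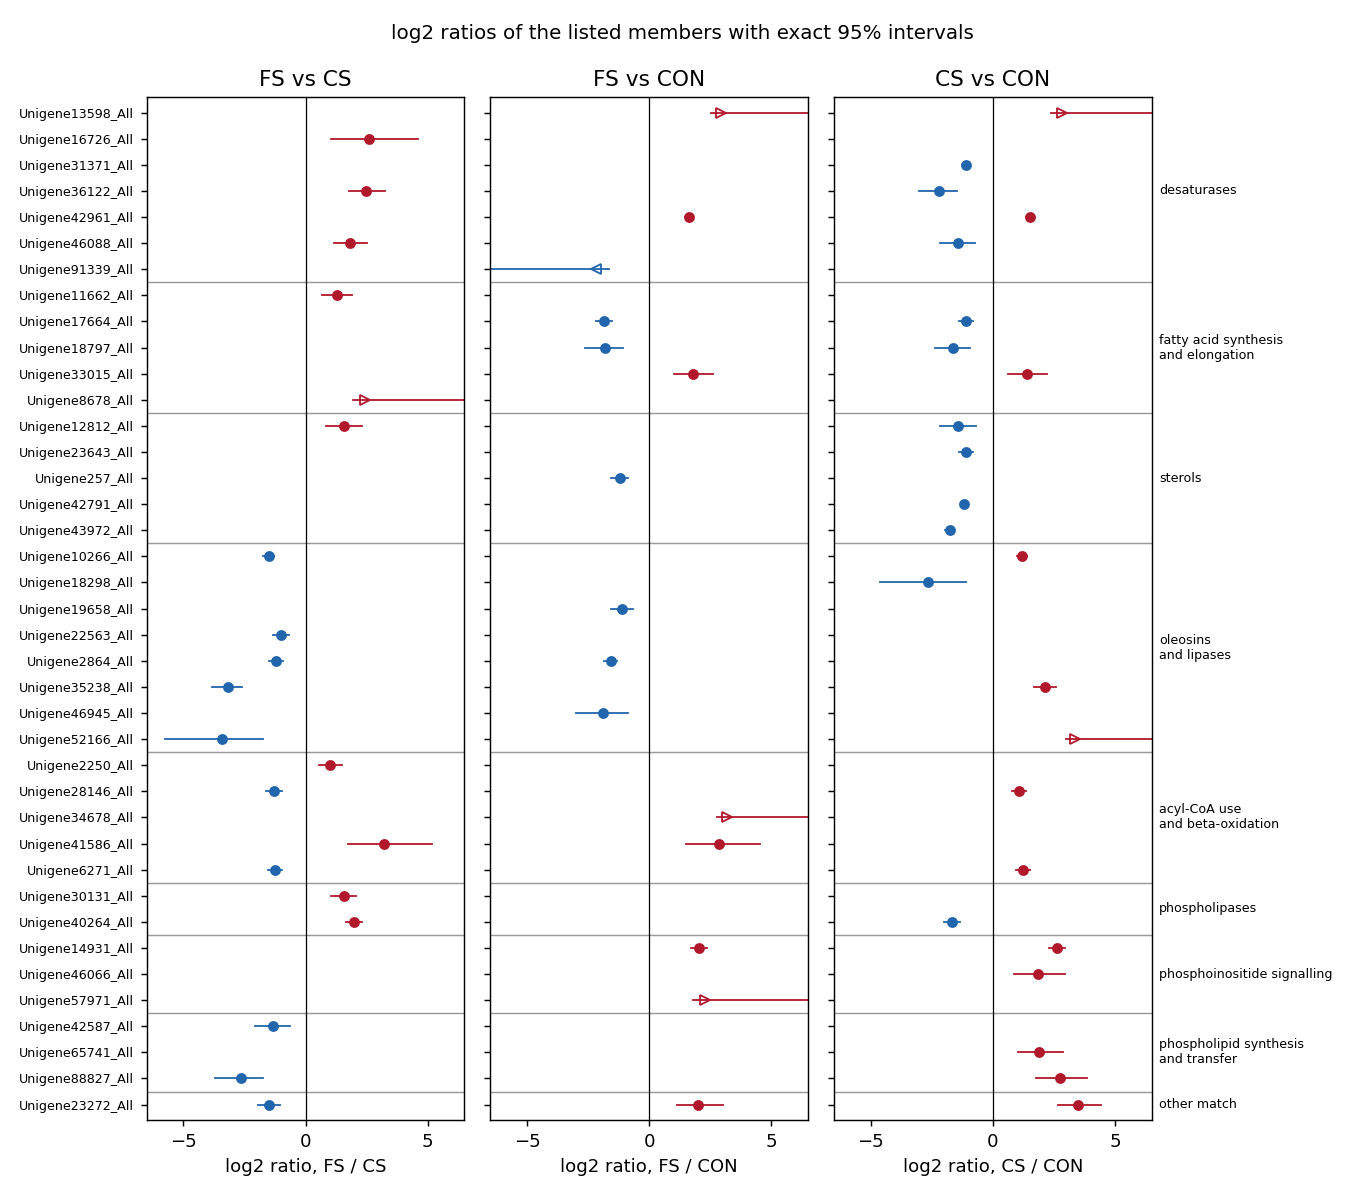
Log2 ratios of the lipid genes by role in the 3 comparisons, with 95% counting intervals as horizontal lines, red for higher and blue for lower in the first-named library, and open triangles for ratios against the limit of 3 tags. No point lies near 0 because a 2-fold difference was needed for listing, and points lie on both sides of 0 in every comparison.

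The 7 desaturases took several courses. A desaturase fused to cytochrome b5 and a plastid omega-3 desaturase were higher in FS and in CS than in CON, while a microsomal omega-3 and an omega-6 desaturase had few tags in CS alone. Tags that carried these readings are shown so that they can be found again in other seabuckthorn libraries. Capitals mark the CATG cut by NlaIII, and sites are counted from the 3′ end of the transcript.
Unigene13598_All, plastid omega-3 desaturase, site 1: CATGttattcatcatcttttt
Unigene36122_All, microsomal omega-3 desaturase, site 1: CATGtgcttggaaagtattat
Unigene46088_All, omega-6 desaturase, site 1: CATGagtggtcttcttgttcc
Unigene46088_All, omega-6 desaturase, site 2: CATGctatggaggcaacaaag
Unigene42961_All, desaturase/cytochrome b5 fusion, site 2: CATGtaaatgtcagatagata
Unigene42961_All, desaturase/cytochrome b5 fusion, site 3: CATGtttcctcaccaattgag
Unigene42961_All, desaturase/cytochrome b5 fusion, site 4: CATGgctgagtttcaatcagg

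The plastid omega-3 desaturase Unigene13598_All, which makes trienoic fatty acids in chloroplast lipids, had 24 tags in FS, 22 in CS and 0 in CON. Against the limit of 3 tags for CON it was at least 7.77-fold higher in FS and at least 7.06-fold higher in CS. FS and CS had close counts, and the interval of their log2 ratio ran from -0.76 to 1.04. The site 1 tag shown above accounted for 22 of the FS tags and 18 of the CS tags, and it too was at 0 in CON.

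The microsomal omega-3 desaturase Unigene36122_All, which acts on lipids of the endoplasmic reticulum, had 105 tags in FS, 19 in CS and 84 in CON. CS stood below both of the others. The log2 ratio was -2.20 (95% interval -3.0 to -1.47) for CS against CON and 2.48 (1.76 to 3.27) for FS against CS, while FS against CON gave 0.28 (-0.15 to 0.71) and was not listed. A second gene with the same best-hit protein, Unigene16726_All, had 24 tags in FS and 4 in CS, a log2 ratio of 2.60 (1.06 to 4.58), and no known count in CON. Their tags were counted separately, and whether they are parts of 1 transcript was not tested.

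Omega-6 desaturases introduce the second double bond of linoleic acid. Unigene46088_All had 87 tags in FS, 25 in CS and 64 in CON, again with CS lowest. Its log2 ratio was -1.41 (-2.14 to -0.72) for CS against CON and 1.81 (1.16 to 2.52) for FS against CS. FAD2 (Unigene31371_All), the microsomal omega-6 desaturase of the same step, had 526 tags in CS and 1084 in CON, a log2 ratio of -1.10 (-1.25 to -0.95). It was not listed for either comparison with FS, so its gene count in FS is not known here and no lack of difference can be read from this.

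The desaturase/cytochrome b5 fusion protein Unigene42961_All, a desaturase carrying its own electron donor domain, was the most abundant of the 7. It had 1394 tags (117 TPM) in FS, 1301 (108 TPM) in CS and 439 (38.0 TPM) in CON. Its name comes from the best hit alone. Whether it acts on acyl chains or on sphingolipid bases was not tested. Both stress libraries lay far above CON. The log2 ratio was 1.62 (1.47 to 1.78) for FS against CON and 1.51 (1.36 to 1.67) for CS against CON. Its sense tags did not keep 1 order of the libraries. At site 4 there were 541 tags in FS, 775 in CS and 157 in CON. At site 3 there were 153 in FS, 53 in CS and 29 in CON. Thus the gene total of FS and CS was close, with a log2 ratio of 0.11 (0.0018 to 0.22), while site 3 gave 1.54 (1.08 to 2.02) and site 4 gave -0.51 (-0.67 to -0.35). At site 2 the counts were 606 in FS and 244 in CON, and at site 7, 31 in CS and 3 in CON. The seventh desaturase, a delta-8 sphingolipid desaturase (Unigene91339_All) that modifies the long-chain base of sphingolipids, had 0 tags in FS and 13 in CON. Against the limit of 3 tags for FS it was 4.46-fold lower in FS, with a log2 interval from -1.65 down.

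**Figure D2:**
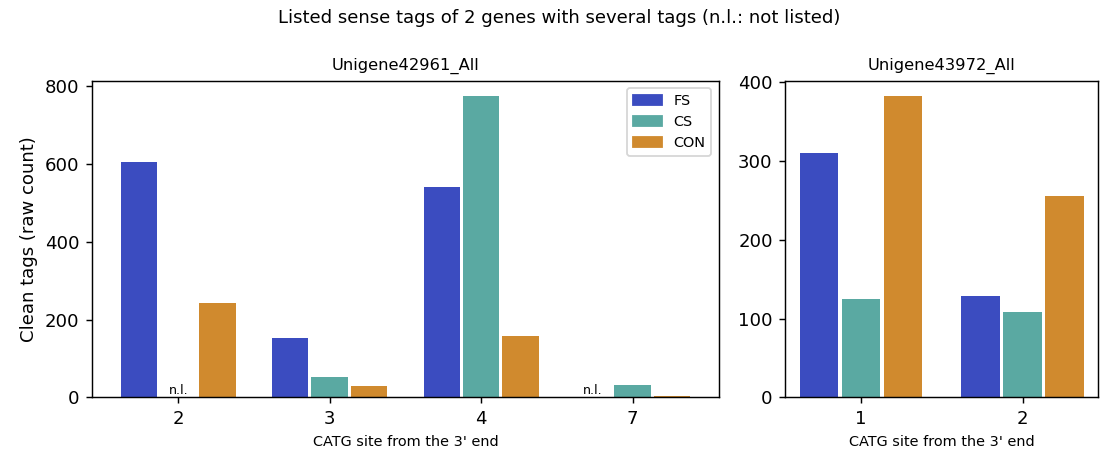
Clean tags at single CATG sites of the desaturase/cytochrome b5 fusion gene (Unigene42961_All) and a sterol methyltransferase (Unigene43972_All), as raw counts in FS, CS and CON; n.l. marks a value that is not listed. At site 4 of the fusion gene CS stood highest with 775 tags, and at site 3 FS did with 153.

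Of the 5 sterol genes, 4 were listed for CS against CON, and all 4 were lower in CS, where 47.0% of all genes listed for this pair were lower. The group was set in part by hand. The sterol-C5-desaturase was moved in from the desaturases, and the protease Unigene23272_All, matched through the word sterol, was moved out. That protease was higher in CS, with a log2 ratio of 3.50 against CON. The 4 genes cover steps on the path to the plant sterols. Tags of the 3 most abundant are shown, since they carry the FS value where the gene itself was not listed for FS. Each such FS value is known only because the tag was itself listed for a comparison with FS. The tags were thus selected for a difference there.
Unigene42791_All, sterol 24-C methyltransferase, site 1: CATGtaattttgttattcgct
Unigene43972_All, delta24-sterol-C-methyltransferase, site 1: CATGtttgttgccttgcagaa
Unigene43972_All, delta24-sterol-C-methyltransferase, site 2: CATGctagctagctcagtttt
Unigene23643_All, sterol-C5-desaturase, site 1: CATGtcctgtttgcttgtata

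Sterol methyltransferases add the side-chain methyl groups that set plant sterols apart from cholesterol. Unigene42791_All, a sterol 24-C methyltransferase, had 1471 tags (122 TPM) in CS and 3190 (276 TPM) in CON, a log2 ratio of -1.17 (-1.26 to -1.08). Its site 1 tag had 2669 counts in FS, 1327 in CS and 2867 in CON. FS was therefore near CON at this tag (log2 ratio -0.15, -0.22 to -0.069) and above CS (1.02, 0.92 to 1.12). This tag was listed for FS against CS, and the gene was not. Unigene43972_All, a delta24-sterol-C-methyltransferase, had 341 tags in CS and 1112 in CON, a log2 ratio of -1.76 (-1.94 to -1.58), the largest fall of the sterol genes. At site 1 it had 310 tags in FS, 125 in CS and 382 in CON. At site 2 the counts were 128 in FS, 108 in CS and 255 in CON. The FS value was thus close to CON at site 1 (log2 ratio -0.34, -0.56 to -0.12) and closer to CS at site 2, where FS against CON gave -1.04 (-1.35 to -0.72). Site 1 was listed for FS against CS and site 2 for FS against CON, so each was selected for its own difference.

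The sterol-C5-desaturase DWF7 (Unigene23643_All), a late step of sterol synthesis needed for brassinosteroids in Arabidopsis, had 146 tags in CS and 300 in CON, a log2 ratio of -1.09 (-1.39 to -0.80). Its site 1 tag, listed for FS against CS, had 217 counts in FS, 97 in CS and 239 in CON. At this tag CS stood low and FS did not, but the gene itself was not listed for FS against CS. A C-4 methyl sterol oxidase (Unigene12812_All), which takes part in removing the methyl groups at carbon 4 of the sterol ring, had 67 tags in FS, 23 in CS and 59 in CON. The log2 ratio was -1.41 (-2.18 to -0.70) for CS against CON and 1.55 (0.85 to 2.31) for FS against CS. Of its FS tags, 26 came from site 3, where CS and CON had 0. Without that site FS had 41 and CS 23, a log2 ratio of 0.85 (0.076 to 1.65), which did not pass the exact binomial test at 0.001 (p = 0.024). The fifth, an oxysterol-binding protein (Unigene257_All) that carries sterols between membranes, had 102 tags in FS and 227 in CON, a log2 ratio of -1.20 (-1.55 to -0.85), with no known gene count in CS.

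**Figure D3:**
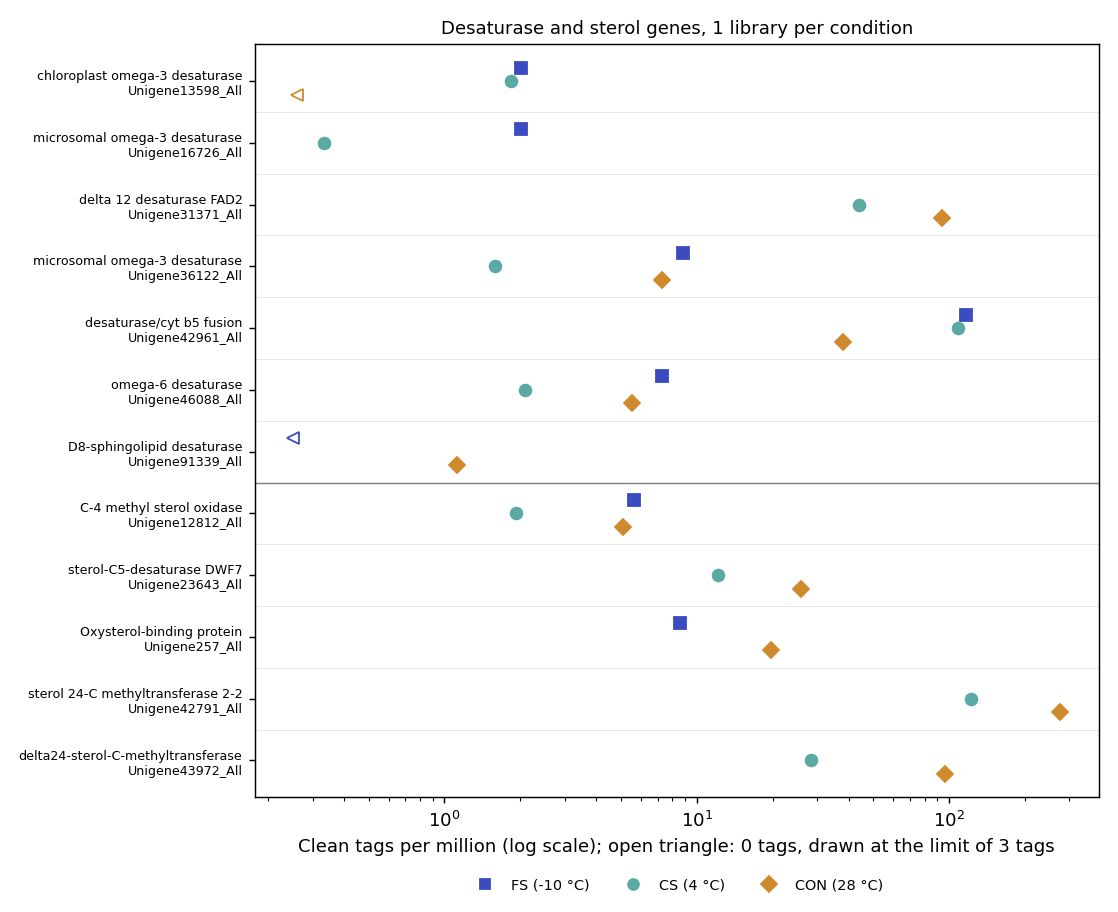
Clean tags per 1000000 (TPM) on a log axis for the 7 desaturases and 5 sterol genes in FS, CS and CON; an open triangle is a count of 0 drawn at the limit of 3 tags, and a missing mark is a library in which the gene was not listed. The desaturase/cytochrome b5 fusion gene lay at 117 TPM in FS, 108 in CS and 38.0 in CON, and each sterol gene listed for CS against CON had its CS mark left of its CON mark.

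The 5 genes of fatty acid synthesis and chain elongation were divided in direction. Elongation builds the very long chains used for cuticular wax and sphingolipids, and its condensing enzyme is beta-ketoacyl-CoA synthase. Of 2 genes named for that enzyme, Unigene33015_All had 67 tags in FS, 52 in CS and 19 in CON, and was higher than CON in both (log2 ratio 1.78, 1.02 to 2.59, in FS and 1.40, 0.62 to 2.24, in CS). The other, Unigene18797_All, had 20 tags in FS, 23 in CS and 68 in CON. Its log2 ratio was -1.81 (-2.61 to -1.07) for FS against CON and -1.62 (-2.37 to -0.92) for CS against CON, so the 2 genes named for this enzyme moved in opposite directions in both comparisons. The best hit that names Unigene18797_All was weak (E-value 1.1e-10). The next enzyme of the same cycle, a 3-ketoacyl-CoA reductase (Unigene17664_All), had 102 tags in FS, 172 in CS and 353 in CON. It was lower in both stress libraries, with a log2 ratio of -1.83 (-2.17 to -1.51) for FS against CON and -1.09 (-1.36 to -0.82) for CS against CON. In the plastid, 3-ketoacyl-ACP synthase lengthens the nascent chain, and that gene (Unigene8678_All) had 16 tags in FS and 0 in CS. Against the limit of 3 tags for CS it was 5.38-fold higher in FS, with a log2 interval from 1.96 up. Palmitoyl-ACP thioesterase (Unigene11662_All), which releases the saturated palmitate from its carrier, had 82 tags in FS and 34 in CS, a log2 ratio of 1.28 (0.69 to 1.90). Antisense tags outnumbered the sense tags of both genes where both are known. Unigene8678_All had 42 antisense tags in CS and 94 in CON at site 2. Unigene11662_All had 136 in FS and 46 in CS at site 7. The orientation of these assembled transcripts was not tested.

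Oleosins and lipases, separate by their terms and brought together by hand, were the largest group, with 8 genes. All 5 listed for FS against CS were lower in FS and all 3 listed for FS against CON were lower in FS, whereas 3 of 4 listed for CS against CON were higher in CS. Over all listed genes, the shares that were higher were 55.3% in FS against CS, 56.2% in FS against CON and 53.0% in CS against CON. The tags of the 3 genes that were high in CS alone are shown.
Unigene10266_All, oleosin, site 1: CATGgctgatcgatcaagaga
Unigene52166_All, oleosin, site 1: CATGttaaagattatgcaaga
Unigene35238_All, triacylglycerol lipase, site 1: CATGcatttgtttgtggtgct

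Oleosins coat oil bodies and are best known from seeds. Unigene10266_All had 231 tags in FS, 660 in CS and 278 in CON, all of them the tag shown. Its log2 ratio was 1.19 (0.99 to 1.40) for CS against CON and -1.50 (-1.72 to -1.28) for FS against CS, while FS and CON differed by -0.31 (-0.57 to -0.052). The second oleosin, Unigene52166_All, had 3 tags in FS, 32 in CS and 0 in CON. Against the limit of 3 tags for CON it was 10.3-fold higher in CS, with a log2 interval from 2.98 up. FS against CS gave a log2 ratio of -3.40 (-5.75 to -1.73). Both genes were thus highest in CS, but the best hit that names Unigene10266_All an oleosin was weak (E-value 4.7e-06). Among terms for seed or embryo tissue, 2 genes were listed as late embryogenesis proteins, and none as caleosin, legumin, vicilin or 2S albumin. Pooled over those 2 genes and the 2 oleosins, the lowest counts (3 in FS, 32 in CS and 0 in CON) were those of Unigene52166_All. The highest were those of Unigene10266_All in CS (660) and CON (278). In FS the highest, 758 tags, came from a late embryogenesis gene, where the oleosins had 231 and 3. The medians were 131 in FS, 317 in CS and 68 in CON. They include the oleosins and are no separate check. The part of seed or embryo tissue in the oleosin values was not tested.

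Triacylglycerol lipases release fatty acids from stored fat. Unigene35238_All had 25 tags in FS, 230 in CS and 51 in CON. CS stood far above the other libraries, with a log2 ratio of 2.12 (1.68 to 2.59) for CS against CON and -3.19 (-3.85 to -2.59) for FS against CS. FS against CON gave -1.07 (-1.82 to -0.35) and was not listed. The other triacylglycerol lipase, Unigene2864_All, had 152 tags in FS, 353 in CS and 439 in CON. Here FS was low, with -1.57 (-1.85 to -1.30) against CON and -1.20 (-1.49 to -0.93) against CS, and CS against CON was a smaller -0.37 (-0.58 to -0.16) and not listed.

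The remaining 4 genes of this group were each on 1 list. A lipase of class 3 (Unigene22563_All) had 113 tags in FS and 229 in CS. A lipase with no further name (Unigene46945_All) had 11 tags in FS and 39 in CON. An esterase/lipase/thioesterase family gene (Unigene19658_All) had 64 tags in FS and 133 in CON. All 3 were lower in FS, with log2 ratios between -1.87 and -1.01. LTL1 (Unigene18298_All), named in Arabidopsis as a lithium-tolerance lipase, had 4 tags in CS and 24 in CON, a log2 ratio of -2.64 (-4.63 to -1.10).

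Enzymes that use acyl-CoA or carry out beta-oxidation made up 5 genes. Acyl-CoA oxidase (Unigene6271_All), the first oxidation step in the peroxisome, had 140 tags in FS, 332 in CS and 136 in CON. It rose in CS by a log2 ratio of 1.23 (0.94 to 1.53) against CON. FS against CON gave -0.00025 (-0.35 to 0.35) and was not listed. The 3-hydroxyacyl-CoA dehydrogenase gene (Unigene28146_All), a later step of the same pathway, had 125 tags in FS, 308 in CS and 142 in CON. Its log2 ratio was 1.06 (0.77 to 1.36) for CS against CON and -1.29 (-1.60 to -0.98) for FS against CS, so both genes were high in CS alone. A beta-oxidation multifunctional protein (Unigene41586_All), which joins the hydratase and dehydrogenase steps, went another way, with 37 tags in FS, 4 in CS and 5 in CON. FS was higher than CON by a log2 ratio of 2.85 (1.49 to 4.55) and higher than CS by 3.22 (1.74 to 5.17).

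An acyl-CoA synthetase (Unigene34678_All), which activates free fatty acids, had 28 tags in FS, all from its site 1 tag, and 0 in CON. Against the limit of 3 tags for CON it was 9.07-fold higher in FS, with a log2 interval from 2.79 up. Acyl-CoA thioesterase (Unigene2250_All), which does the reverse, had 110 tags in FS and 55 in CS, a log2 ratio of 1.01 (0.53 to 1.51). That ratio lay just past the 2-fold needed for listing and turned to -0.072 under RLE scaling. Antisense tags of this gene outnumbered its sense tags, with 407 in FS and 484 in CS, and the orientation of the assembled transcript was not tested.

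**Figure D4:**
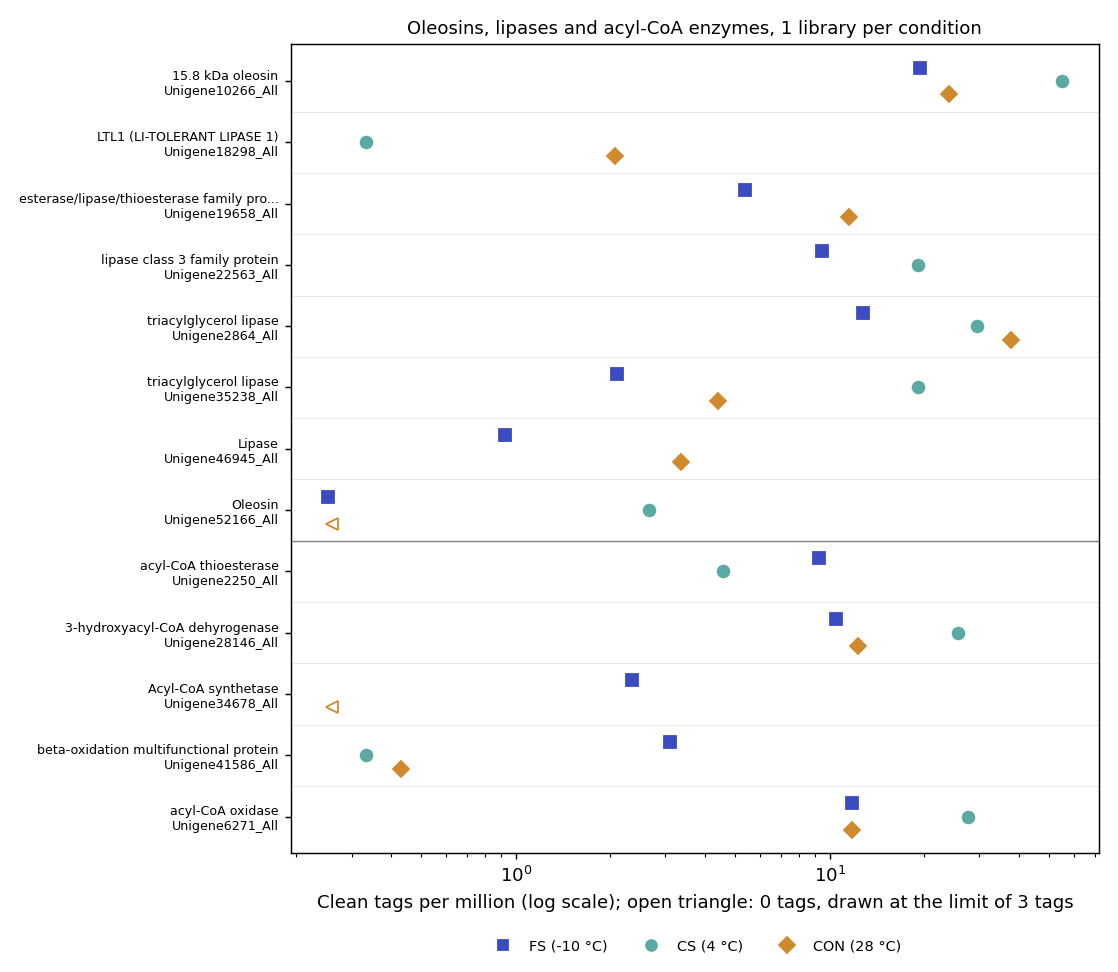
Clean tags per 1000000 (TPM) on a log axis for the 8 oleosin and lipase genes and the 5 acyl-CoA genes in FS, CS and CON; an open triangle is a count of 0 drawn at the limit of 3 tags, and a missing mark is a library in which the gene was not listed. The marks of both oleosins, the lipase Unigene35238_All, acyl-CoA oxidase and 3-hydroxyacyl-CoA dehydrogenase lie farthest right in CS.

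The 2 phospholipases of this group, which cut membrane phospholipids, were both higher in FS than in CS. Over all genes listed for this pair, 55.3% were higher in FS. A phospholipase C was placed with the signalling genes below. Unigene40264_All, named phospholipase A21 and read here as a phospholipase A2, which frees a fatty acid and leaves a lysophospholipid, had 403 tags in FS, 104 in CS and 320 in CON. CS was low, with a log2 ratio of -1.68 (-2.01 to -1.35) for CS against CON and 1.97 (1.65 to 2.29) for FS against CS, and FS against CON gave 0.29 (0.075 to 0.51) and was not listed. Phospholipase D beta (Unigene30131_All), which makes phosphatidic acid directly from phospholipids, had 128 tags in FS and 44 in CS, a log2 ratio of 1.55 (1.05 to 2.08).

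A further 3 genes described here belonged to phosphoinositide and diacylglycerol signalling. Diacylglycerol kinase turns diacylglycerol into phosphatidic acid, and the gene Unigene14931_All for it had 374 tags in FS, 574 in CS and 89 in CON. Both stress libraries were above CON, by a log2 ratio of 2.03 (1.69 to 2.38) in FS and 2.63 (2.31 to 2.97) in CS, and FS was below CS by less than the 2-fold needed for listing (-0.61, -0.80 to -0.42). The site 1 tag made up 372 of its tags in FS, 574 in CS and 89 in CON.
Unigene14931_All, diacylglycerol kinase, site 1: CATGcttgcaaaggatgattg
A second gene with the same best-hit protein, Unigene57971_All, had 15 tags in FS and 0 in CON. Against the limit of 3 tags for CON it was 4.86-fold higher in FS, with a log2 interval from 1.80 up. Whether these kinase genes are parts of 1 transcript was not tested either. Phospholipase C (Unigene46066_All), which yields diacylglycerol from phosphoinositides, had 41 tags in CS and 11 in CON, a log2 ratio of 1.84 (0.86 to 2.95).

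Phospholipid synthesis and transfer was represented by 3 genes, brought together by hand, with the higher count in CS in each of their listed comparisons. Over all listed genes, 53.0% were higher in CS for CS against CON, and 55.3% were higher in FS for FS against CS. The gene for subunit P of phosphatidylinositol N-acetylglucosaminyltransferase (Unigene88827_All), which starts the lipid anchor of GPI-linked proteins, had 11 tags in FS, 70 in CS and 10 in CON. Its log2 ratio was 2.75 (1.79 to 3.87) for CS against CON and -2.66 (-3.72 to -1.73) for FS against CS, so CS alone was high. A phosphatidylglycerol/phosphatidylinositol transfer protein (Unigene65741_All) had 54 tags in CS and 14 in CON, a log2 ratio of 1.89 (1.02 to 2.86). Phosphatidylserine synthase (Unigene42587_All), which makes a lipid of the inner membrane face, had 25 tags in FS and 64 in CS, a log2 ratio of -1.34 (-2.07 to -0.66).

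**Figure D5:**
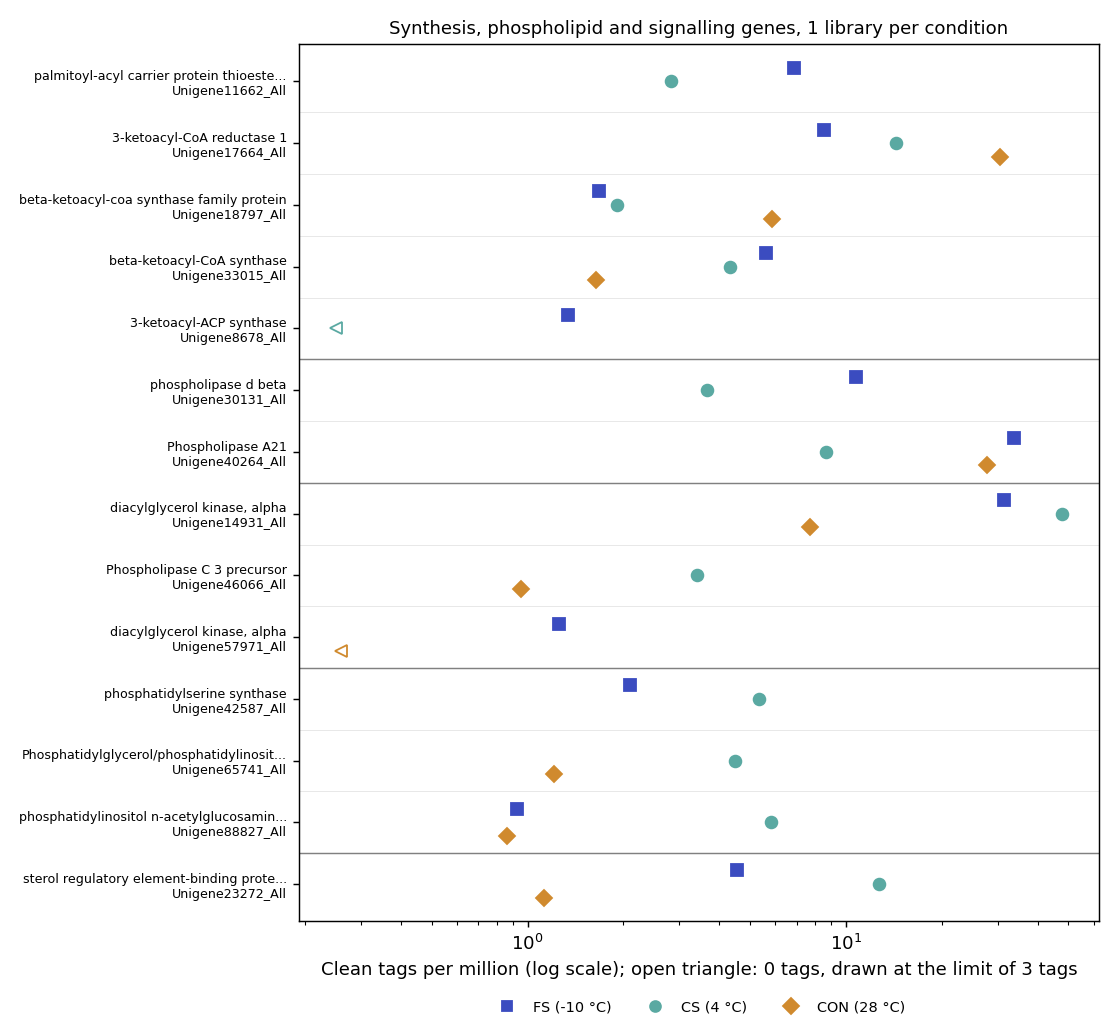
Clean tags per 1000000 (TPM) on a log axis for the genes of fatty acid synthesis, phospholipases, phosphoinositide signalling and phospholipid synthesis, and the protease matched through the word sterol, in FS, CS and CON; an open triangle is a count of 0 drawn at the limit of 3 tags, and a missing mark is a library in which the gene was not listed. The diacylglycerol kinase Unigene14931_All lay above CON in both FS and CS, and phospholipase A2 was lowest in CS.

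The last of the 40 was matched through the word sterol in its name and is not a lipid enzyme. The site 2 protease of the sterol regulatory element-binding protein (Unigene23272_All) cuts transcription factor precursors inside the membrane in animals. It was the only one of the 40 on all 3 lists, with 54 tags in FS, 153 in CS and 13 in CON. CS was above CON by a log2 ratio of 3.50 (2.69 to 4.44), FS above CON by 2.01 (1.12 to 3.01), and FS against CS gave -1.49 (-1.97 to -1.03). Antisense tags of this gene were more numerous than these sense tags, with 534 in FS, 3874 in CS and 261 in CON. The orientation of the assembled transcript was not tested, and if it is reversed the sense counts are not those of the named gene.

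Other genes of lipid metabolism, not among the 40, were sought with a fixed list of terms, and 26 were listed. In CS against CON 13 were listed, 7 higher and 6 lower. In FS against CON there were 18, of which 14 were higher and 4 lower, and in FS against CS 10, of which 8 were higher and 2 lower. Over all listed genes, 53.0%, 56.2% and 55.3% were higher in these comparisons. The terms also drew in genes that are not lipid enzymes, among them an isoflavone malonyltransferase and a peroxisomal membrane protein. Plastid fatty acid synthesis begins with acetyl-CoA carboxylase, whose beta subunit (Unigene48215_All) had 45 tags in FS, 35 in CS and 0 in CON. Against the limit of 3 tags for CON it was 14.6-fold higher in FS and 11.2-fold higher in CS. The log2 intervals ran upward from 3.51 and 3.12. The biotin carrier protein BCCP1 of the same enzyme (Unigene26859_All) had 31 tags in FS, 0 in CS and 2 in CON. Enoyl-ACP reductase (Unigene49683_All), the last step of each round of that synthesis, had 40 tags in FS, 6 in CS and 5 in CON. FS was thus the highest library for all 3.

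Squalene epoxidase (Unigene41336_All), an early step on the way to the sterols described above, had 163 tags in FS, 235 in CS and 994 in CON. It was lower in both stress libraries, with a log2 ratio of -2.65 (-2.90 to -2.41) for FS against CON and -2.13 (-2.35 to -1.93) for CS against CON. An aminophospholipid ATPase (Unigene14856_All), a flippase that moves lipids across the bilayer, had 145 tags in FS, 111 in CS and 45 in CON. Glycerol-3-phosphate acyltransferase 8 (Unigene37570_All), known in Arabidopsis for cutin synthesis, had 30 tags in FS, 7 in CS and 30 in CON, with CS lowest.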

How the data were processed

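The authors cut cDNA with NlaIII, sequenced 3 leaf tag libraries, removed adaptors, low-quality reads and tags seen once, and mapped clean tags of 21 bases to reference transcripts with at most 1 mismatch. Bowtie 0.12.3 is named in the submitters' processing notes, without its settings. The deposited raw count of a gene is its number of unambiguous clean tags in the sense direction, and the authors' TPM is that count over the clean tags of the library, scaled to 1000000. The deposited lists hold only genes past the authors' threshold (a false discovery rate limit and a log2 ratio of at least 1), and their columns of log2 ratios, p-values and false discovery rates were not used. A TPM of 0.01 in them stands for 0 tags. The number of per-sample columns that could not be given to a library was 0.

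Library totals were computed from counts and TPM. Pairs of libraries were compared by a two-sided exact binomial test of the counts (scipy 1.17.1, Python 3.11.15), with 95% Clopper-Pearson intervals and a limit of 3 tags in place of 0. The procedure was tested on simulated data. PCR reads carry no molecular identifiers, so intervals and limits cover counting error only. Alternatives were TMM and RLE scaling and assumed coefficients of variation of 0.2 and 0.4 (edgeR 4.0.16, R 4.3.3). Others were a minimum of 30 tags, a log2 ratio of at least 2, and leaving out genes with 0 tags. The last was the most abundant sense tag of a gene listed for the same pair.

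The 40 genes and the lists of terms were chosen with earlier results of these data known. Roles came from terms in the descriptions, and some genes were then moved by hand after their descriptions were read. Some roles were also merged. Naming followed a rule: per role, the largest rise and fall of each comparison among genes whose lower count was 10 or more, every desaturase, every gene on all 3 lists, every gene with 0 tags against at least 30, and every gene of at least 100 TPM. That gave 26 genes, and the other 14 are named to account for the rest. The values of 1 of the 40 genes, which stays in the counts, and of 1 tag of another gene are not reported here.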

Additional observations from a re-analysis of the deposited data

Results flagged for a closer look

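Reads on the antisense strand are not part of the gene counts above. Each tag here is from that strand of a lipid gene and was higher in a stress library than in CON, which is why it is given, and no comparison above uses it. Of the listed tags of the 40 genes, 38 were sense and 16 antisense, the antisense ones from 10 genes. Their origin and the orientation of the assembled transcripts were not tested. Where a transcript is assembled in reverse, the sense counts printed above would not be those of the named gene.

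The site 2 protease gene Unigene23272_All had 534 antisense tags in FS, 3874 in CS and 261 in CON at site 2, against 54, 153 and 13 sense tags of the gene in FS, CS and CON. Its antisense log2 ratio was 3.84 (3.66 to 4.02) for CS against CON and 0.99 (0.77 to 1.21) for FS against CON.

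Acyl-CoA thioesterase Unigene2250_All had 407 antisense tags in FS, 484 in CS and 186 in CON at site 1. The diacylglycerol kinase Unigene14931_All had 27 antisense tags in FS and 0 in CON.

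The desaturase/cytochrome b5 fusion gene Unigene42961_All had antisense tags at 3 sites. At site 3 there were 541 in FS, 184 in CS and 65 in CON. At site 6 there were 105 in FS, 76 in CS and 18 in CON. At site 2 there were 75 in FS and 20 in CON. At site 3 FS was above CS by a log2 ratio of 1.57 (1.32 to 1.82), next to 1.54 (1.08 to 2.02) for the sense tag of that site number.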

How the results depend on the processing

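No paired analysis was possible because each condition had 1 library. TMM scaling moved all log2 ratios by -0.12 (CS against CON), -0.11 (FS against CON) and -0.13 (FS against CS) and left the direction and the exact-test call of each of the 43 ratios tried as they were, but Unigene28146_All in CS against CON (0.95) and Unigene2250_All in FS against CS (0.88) came under 2-fold, so that 12 (13 as reported), 8 (8) and 9 (10) genes were higher by 2-fold. RLE scaling moved them by -1.04, -1.10 and -1.08, since it sets the median listed gene to no change although only genes past 2-fold are listed. Under it the genes counted as higher fell to 6 in CS against CON (13 as reported), 4 in FS against CON (8) and 4 in FS against CS (10), 9 of 43 single ratios lost their exact-test call (Unigene33015_All, Unigene6271_All and Unigene28146_All in CS against CON, Unigene23272_All and Unigene33015_All in FS against CON, and Unigene16726_All, Unigene46088_All, Unigene12812_All and Unigene11662_All in FS against CS), and acyl-CoA thioesterase Unigene2250_All turned to -0.072 in FS against CS (1.01 as reported). Where the log2 ratio had to reach 2 or -2, 6 were higher and 2 lower in CS against CON (13 and 11 as reported), 6 and 1 in FS against CON (8 and 8), and 4 and 3 in FS against CS (10 and 10). Higher and lower counts over all listed genes were not made under RLE scaling or at this limit. Where the higher count had to be 30 or more, or without genes at 0 tags, 5 were higher in FS than in CON. With assumed coefficients of variation of 0.2 and 0.4 the genes past the test were 10 and 3 in CS against CON (24 by counting error), 10 and 2 in FS against CON (16), and 9 and 1 in FS against CS (20). Over all listed genes these gave 1978 and 343, 1884 and 249, and 1855 and 171. Taking the most abundant listed sense tag alone changed none of 34 calls. Each such tag was already on the list of differing tags for the same pair. It could thus hardly lose its call, and robustness cannot be read from this. Leaving out the site 3 tag of Unigene12812_All, a choice made after seeing the data, ended its call in FS against CS (0.85). Leaving out a replicate was not possible with 1 library per condition. Depth limits genes near 0: a count of 0 allows up to 3 tags.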

Other observations

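Linolenic acid of chloroplast membranes is also the start of jasmonate synthesis, by lipoxygenase, allene oxide synthase, allene oxide cyclase and 12-oxophytodienoate reductase. Genes named for these steps were among the other lipid genes sought. Lipoxygenase LOX2 (Unigene10953_All) had 291 tags in FS, 575 in CS and 1223 in CON, and was lower in both, by a log2 ratio of -2.11 (-2.30 to -1.93) in FS and -1.14 (-1.29 to -0.999) in CS. Another lipoxygenase, LOX-3 (Unigene43187_All), had 290 tags in FS and 126 in CON, and one with no number (Unigene12014_All) had 23 in FS, 33 in CS and 2 in CON. The lipoxygenases listed thus did not share a direction.

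The later steps were higher in the stress libraries. Allene oxide synthase (Unigene16849_All) had 279 tags in FS, 156 in CS and 56 in CON. Allene oxide cyclase (Unigene12146_All) had 39 tags in CS and 10 in CON. A reductase of 12-oxophytodienoic acid (Unigene56418_All) had 971 tags in FS, 1065 in CS and 130 in CON, and a second one (Unigene45091_All) had 71 in FS, 52 in CS and 5 in CON. Its log2 ratio was 3.79 (2.50 to 5.45) for FS against CON and 3.32 (2.01 to 5.01) for CS against CON. These are values of 1 library per condition with counting intervals only.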
